A study of Mus musculus with 74 samples.

Results

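The genes described here are the nuclear genes of oxidative phosphorylation. They are the features whose symbol starts with Ndufa, Ndufb, Ndufc, Ndufs, Ndufv, Sdh, Uqcr, Cox4, Cox5, Cox6, Cox7, Cox8 or Atp5, are no pseudogenes by name, and have a mean of at least 1 FPKM over all 74 libraries. FPKM counts fragments per length of transcript and per size of the library, so levels can be compared between genes. Of 96 features with such a symbol, 93 passed, out of 23297 features that carry a symbol. Cox8b (1.04 FPKM) and Cox7b2 (1.08 FPKM) lay just inside the limit, and Cox4i2 (0.429 FPKM), Ndufa4l2 (0.0569 FPKM) and Cox8c (0.0108 FPKM) lay outside it. By role, 36 members are subunits of complex I, 4 of complex II, 8 of complex III, 11 of complex IV and 15 of complex V, 5 are tissue isoforms of complex IV, and 14 are assembly factors or relatives that the prefixes also catch.

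RNA was sequenced from cells that anti-CD11b magnetic beads had retained (CD11b is a surface protein of myeloid cells) from female mice on the C57BL/6J background. Microglia (MG) came from 1 spinal cord each, and sciatic nerve macrophages (MP) from both nerves of 1 mouse, or of 2 pooled mice before symptoms. SOD1-G93A mice (G93A), which carry a mutant human SOD1 transgene and model amyotrophic lateral sclerosis, were sampled before symptoms (mean age 50.8 days), at onset (105 days), in early symptoms (152.6 days) and at end stage (169.4 days). Their MG groups hold 4, 5, 4 and 4 libraries and their MP groups 3, 3, 4 and 4. MG controls, with 4 libraries each, were animals whose human SOD1 transgene is wildtype (WT; 107.3 and 165.4 days) and non-transgenic mice (B6; 109.8 and 165.6 days). A further 4 MP libraries of end-stage age carry conflicting labels, WT in the description and G93A in the title and strain, and are named "described as WT" here. In a separate set, all recipients were G93A mice, grafted at onset with bone marrow of either G93A or WT donors. Their MG and MP were taken in early symptoms or at end stage in groups of 3 libraries, except 2 for early symptomatic MP after WT marrow.

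The respiratory chain passes electrons from NADH through complex I, and from succinate through complex II, to ubiquinone, then through complex III and cytochrome c to complex IV, which reduces oxygen. The proton gradient built by complexes I, III and IV drives complex V, the ATP synthase. Complexes I, III, IV and V combine subunits from nuclear genes with subunits encoded by mitochondrial DNA, while complex II is nuclear in full. In tissue macrophages and microglia this pathway is known to shift relative to glycolysis with activation.

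The promoters of some of these genes are shown first, to show where the NRF1 motif lies in them. NRF1 (nuclear respiratory factor 1) is a transcription factor known to bind promoters of respiratory chain genes. A RefSeq table of GRCm38.p6 held the promoter of 77 of the 93 members, and the 250 bases before each start were searched on both strands for the NRF1 motif, spelled by the capitals below. It was found in 14 of the 77 (18.2%) and in 1144 of 27025 promoters of all genes (4.23%). The 14 are Sdha and Sdhd of complex II, Cox6a1 of complex IV, Atp5c1, Atp5g2, Atp5h and Atp5k of complex V, Ndufa5, Ndufa8, Ndufa11, Ndufb4, Ndufs5 and Ndufs6 of complex I, and the assembly factor Ndufaf4. The 5 sequences below run 5′ to 3′ with NRF1 matches in capitals. They show 1 member each of complexes II, IV and I with 3, 2 and 1 matches, and 2 members without a match whose changes below have opposite signs. Sdha lies at chr13:74350241-74350490 (minus strand), Cox6a1 at chr5:115348959-115349208 (minus), Ndufs6 at chr13:73328483-73328732 (minus), Cox7a1 at chr7:30183921-30184170 (plus) and Ndufa1 at chrX:37191239-37191488 (minus).
Sdha: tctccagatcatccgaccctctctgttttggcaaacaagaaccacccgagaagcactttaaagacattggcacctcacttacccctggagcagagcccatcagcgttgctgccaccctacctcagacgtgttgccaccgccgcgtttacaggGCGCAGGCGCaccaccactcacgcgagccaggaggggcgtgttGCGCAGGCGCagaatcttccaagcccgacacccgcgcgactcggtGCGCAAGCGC
Cox6a1: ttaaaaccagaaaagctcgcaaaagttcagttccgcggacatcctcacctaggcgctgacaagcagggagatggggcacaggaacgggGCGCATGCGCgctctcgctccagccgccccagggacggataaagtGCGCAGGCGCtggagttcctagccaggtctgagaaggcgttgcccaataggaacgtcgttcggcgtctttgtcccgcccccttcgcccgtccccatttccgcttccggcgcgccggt
Ndufs6: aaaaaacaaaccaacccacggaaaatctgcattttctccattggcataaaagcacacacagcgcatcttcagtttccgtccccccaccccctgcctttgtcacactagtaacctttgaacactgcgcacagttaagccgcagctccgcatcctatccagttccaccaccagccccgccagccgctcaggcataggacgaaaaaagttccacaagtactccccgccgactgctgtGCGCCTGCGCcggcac
Cox7a1: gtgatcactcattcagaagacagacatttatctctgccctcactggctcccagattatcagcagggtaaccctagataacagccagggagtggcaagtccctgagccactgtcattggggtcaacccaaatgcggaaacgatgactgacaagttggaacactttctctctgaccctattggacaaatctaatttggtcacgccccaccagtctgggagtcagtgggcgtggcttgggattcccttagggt
Ndufa1: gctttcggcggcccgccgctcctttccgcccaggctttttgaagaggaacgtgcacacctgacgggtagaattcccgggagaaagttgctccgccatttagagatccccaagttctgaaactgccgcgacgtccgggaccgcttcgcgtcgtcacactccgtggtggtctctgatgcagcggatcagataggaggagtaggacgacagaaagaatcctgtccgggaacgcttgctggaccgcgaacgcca

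These matches are a description of letters in a window, not of binding. Members with an NRF1 match had a median log2 change of -0.69 from before symptoms to end stage in G93A microglia, and members without one had -0.80. The ETS motif CCGGAAGT was found in 3 of 77 members (3.90%) and in 3.23% of all promoters, and the YY1 motif in 1 member (1.30%) and in 0.359% of all. The ERR motif AAGGTCA was in 6.49% of members and 4.70% of all, the PU.1 motif GAGGAAGT in 3.90% and 2.79%, the GC box GGGCGG in 41.6% and 35.4%, CCAAT in 42.9% and 37.5%, and TATAAA in 7.79% and 14.3%. No test was made of these shares.

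Across the series, the microglia markers had a mean log2(FPKM + 1) between 5.76 and 10.11 in non-grafted MG and between 2.15 and 6.36 in non-grafted MP. Neutrophil markers were high in MP (10.97 to 12.23) and ranged from 1.46 to 10.67 in MG. In non-grafted MP, tissue macrophage markers were at 4.09 to 7.09, monocyte markers at 6.77 to 7.75 and erythroid markers at 8.60 to 14.07. In non-grafted MG the same 3 lists were at 2.31 to 4.85, 0.78 to 6.70 and 0.28 to 11.49. The names MG and MP follow the labels, and their levels are those of all cells in a sample. Astrocyte, oligodendrocyte and neuron markers were present in MG, at 3.22 to 8.41, 3.85 to 7.48 and 0.82 to 4.36. The sequencing depth behind these values is unknown here. Of 92 members compared, 27 share a near-identical stretch with another annotated transcript, among them Cox6c, Ndufa12, Atp5h, Atp5k and Uqcrb. For some of the 27, such as Ndufa13 and Tssk6, that transcript is a gene overlapping at the same place. In all, 21 members overlap another gene, among them Ndufa1, Ndufs1, Cox4i1, Cox6a2 and Atp5b, so reads could be shared there.

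In G93A microglia, transcripts of all 5 complexes were lower at end stage than before symptoms. The mean log2(FPKM + 1) over the 74 subunits, called the subunit score below, was 7.56, 7.59, 7.42 and 7.28 in the 4 libraries before symptoms and 6.62, 6.67, 6.59 and 6.85 in the 4 at end stage. The groups did not overlap. In limma, 81 of the 93 members fell, 2 rose and 10 were not called at an adjusted p under 0.05. Over all 11750 genes tested, 55.9% were called in either direction, 31.1% lower and 24.8% higher. The median change of the members was -0.79 on the log2(FPKM + 1) scale, against 0.026 over all genes tested. These are bulk samples, so fewer cells of a type and less RNA per cell cannot be told apart. Stage and age rise together in this comparison, and no control had the age before symptoms. Their parts cannot be told apart here.

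By complex, the falls were spread over the chain. In complex I, 32 of 36 subunits fell, among them all 7 core subunits, with a complex median of -0.79. In complex III, all 8 fell (median -0.90). In complex IV, 10 of 11 fell (median -0.87), and in complex V, 14 of 15 (median -0.86). In complex II, 2 of 4 fell (median -0.70). Of 11 assembly factors, 9 fell, with a smaller median of -0.53. The difference between these medians was not tested.

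Among complex I members, Ndufs1, a core subunit that carries iron-sulfur clusters, was at 99.27, 101.65, 99.03 and 82.41 FPKM before symptoms. At end stage it was at 30.49, 35.82, 39.23 and 47.31 FPKM, and every library lay below those before symptoms (log2 change -1.31 ± 0.29 SE, adjusted p = 0.000953, limma). Ndufv1, the core subunit that binds NADH, was at 131.59, 121.41, 102.63 and 106.68 FPKM before and 29.40, 46.55, 47.27 and 78.90 at end stage (-1.26 ± 0.35, adjusted p = 0.00468). Both core subunits thus went down without overlap of libraries. The largest called changes of complex I were those of Ndufa12 (-1.41 ± 0.37, adjusted p = 0.00325) and Ndufc1 (-1.32 ± 0.33, adjusted p = 0.00215), both accessory subunits. Ndufa2, Ndufb7 and Ndufv3 were not called, with changes between -0.38 and -0.33.

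Ndufa1, a small accessory subunit encoded on the X chromosome, was the complex I member that rose. It was at 196.08, 191.28, 178.36 and 162.31 FPKM before symptoms and at 280.94, 255.08, 225.10 and 195.93 at end stage, so the lowest end-stage library reached into the earlier range (0.38 ± 0.16, adjusted p = 0.0423). This call held in 6 of 17 alternative settings, with adjusted p from 0.00287 to 0.402. In the other complex I members the direction was downward in all 35.

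In complex II, Sdha, the flavoprotein that oxidises succinate, was at 372.54, 352.33, 299.15 and 305.47 FPKM before symptoms and at 121.39, 143.20, 141.42 and 189.88 at end stage (-1.17 ± 0.32, adjusted p = 0.00422). Sdhc, a membrane anchor, went from 71.61 to 85.23 FPKM over libraries before symptoms to 29.40 to 44.56 (-1.11 ± 0.34, adjusted p = 0.0078). The other two subunits did not follow as far. Sdhb, the iron-sulfur subunit, was at 328.97, 319.77, 302.33 and 301.09 FPKM and then at 236.91, 257.45, 239.51 and 285.57, which did not pass the test (-0.30 ± 0.20, adjusted p = 0.195). Sdhd, the other anchor, lay between 109.82 and 125.51 FPKM before symptoms and between 103.03 and 115.30 at end stage (adjusted p = 0.399).

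In complex III, the Rieske iron-sulfur protein Uqcrfs1 had the largest fall of any subunit outside the tissue isoforms. It was at 216.13, 205.50, 206.68 and 177.95 FPKM before symptoms and at 65.23, 67.81, 66.66 and 91.56 at end stage (-1.47 ± 0.31, adjusted p = 0.000708). Uqcr10 fell from a mean of 387.8 to 183.3 FPKM (-1.08 ± 0.31, adjusted p = 0.00558), and the core protein Uqcrc1 from 330.1 to 185 FPKM (-0.85 ± 0.22, adjusted p = 0.00314). All 8 complex III members had end-stage libraries below every library taken before symptoms. How many of all genes did so was not counted, so this has no background beside it.

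In complex IV, Cox6c was at 737.33, 771.07, 698.72 and 558.77 FPKM before symptoms and at 249.22, 261.47, 240.48 and 341.08 at end stage (-1.34 ± 0.35, adjusted p = 0.00268). Cox4i1, a subunit with a role in regulation by ATP, was at 749.24, 795.94, 679.55 and 652.42 FPKM and then at 434.15, 444.29, 406.09 and 486.99 (-0.70 ± 0.24, adjusted p = 0.0183). Ndufa4, named for complex I and now assigned to complex IV, fell by 1.02 ± 0.29 (adjusted p = 0.00526). Cox6b1, a subunit on the outer face of the complex, was the subunit of complex IV not called (-0.19 ± 0.20, adjusted p = 0.406), and its libraries overlapped at 331.49 to 470.41 and 324.35 to 385.22 FPKM.

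In complex V, Atp5b, the catalytic beta subunit, was at 964.87, 990.45, 819.62 and 786.35 FPKM before symptoms and at 391.62, 430.35, 449.21 and 574.65 at end stage (-0.95 ± 0.27, adjusted p = 0.00512). Atp5k, a small membrane subunit, fell by 1.18 ± 0.31 (adjusted p = 0.0032), and Atp5h, part of the peripheral stalk, by 1.03 ± 0.25 (adjusted p = 0.00187). Atp5g2, 1 of 3 genes that encode the same subunit c of the rotor ring, was the member not called, at 35.74 to 54.58 FPKM before symptoms and 45.44 to 66.70 at end stage (0.27, adjusted p = 0.204). Among assembly factors, Ndufaf5 was at 17.46, 16.39, 14.12 and 12.55 FPKM and then at 9.32, 4.87, 6.20 and 7.52 (-1.04 ± 0.33, adjusted p = 0.0113), while Ndufaf3 and Ndufaf7 changed by -0.10 and -0.06 and were not called.

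Cox6a2 went the other way from nearly every other member. It encodes the isoform of subunit 6a that is typical of heart and skeletal muscle, lies at chr7:128205436-128206366 on the minus strand, and is paired with the widely expressed Cox6a1. Before symptoms it was at 1.40, 0.84, 3.16 and 2.39 FPKM, and at end stage at 57.23, 51.74, 73.27 and 17.19 FPKM. The rise was 4.01 ± 0.60 on the log2 scale (adjusted p = 3.67e-05) and held in 17 of 17 alternative settings, with values from 2.76 to 4.62. In early symptoms it was at 45.69, 79.38, 53.67 and 47.86 FPKM (4.32 ± 0.60, adjusted p = 4.04e-05). At onset it was at 3.17, 54.78, 23.02, 4.71 and 7.86 FPKM, with the lowest of them next to the highest library before symptoms (2.13 ± 0.57, adjusted p = 0.0391). That call held in 8 of 19 alternative settings. The G93A comparisons share the libraries taken before symptoms.

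In control microglia Cox6a2 stayed low in B6 mice, at 2.30, 0.56, 2.87 and 5.84 FPKM at the age of end stage. In WT mice of that age it was at 12.56, 12.91, 3.78 and 19.61 FPKM, so its highest library lay above the lowest of the end-stage G93A group. At the age of onset Cox6a2 was at 0.23 to 3.21 FPKM in B6 and at 1.58 to 3.07 in WT. Every WT library of the later age thus lay above those of the earlier age, while B6 libraries overlapped between the ages. A change with age in the controls was not tested. End-stage G93A exceeded B6 by 3.72 ± 0.60 (adjusted p = 0.000107) and WT by 1.95 ± 0.60 (adjusted p = 0.0478). The difference from WT was called in 5 of 17 alternative settings. It was not called without any 1 of G93A replicates 1, 2 and 3 (adjusted p = 0.137, 0.11 and 0.144) or of WT replicates 1, 2 and 3 (adjusted p = 0.0607, 0.0689 and 0.207). In microglia of grafted G93A mice Cox6a2 ranged from 8.57 to 68.46 FPKM over 12 libraries.

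Skeletal muscle markers were near zero in these microglia libraries, with a mean log2(FPKM + 1) of 0.08 to 0.39. In MP after WT marrow at end stage, replicate 1 had 86.24 FPKM of Cox6a2 and a muscle score of 6.34. The other libraries of that group had 0.81 and 4.70 FPKM and scores of 3.63 and 3.11. In MP after G93A marrow, Cox6a2 reached 28.20 FPKM in early symptoms and 16.23 at end stage. The part of muscle RNA in the Cox6a2 values was not tested. A second gene of the same region, Itgax, which encodes the integrin CD11c and lies at chr7:128129546-128150657 on the plus strand, was chosen for a look after the values of Cox6a2 were seen. Itgax was between 0.27 and 1.36 FPKM before symptoms, between 38.05 and 58.42 in early symptoms and between 25.31 and 74.33 at end stage (4.86 ± 0.63, adjusted p = 6.48e-06). Of the other neighbours tested, Itgam (1.65, adjusted p = 0.0167) and BC017158 (0.98, adjusted p = 0.0118) rose less at end stage. Armc5 (0.68), 9130023H24Rik (0.24) and Tgfb1i1 (-0.57) were not called (adjusted p = 0.0791, 0.293 and 0.0709, limma). Itgad, on the strand opposite to Cox6a2, shares 66 bases with it and was at 0.28 to 0.66 FPKM at end stage. The sources used here do not say whether the authors' counting used strand, and a part of overlapping reads in the Cox6a2 values was not tested.

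**Figure D1:**
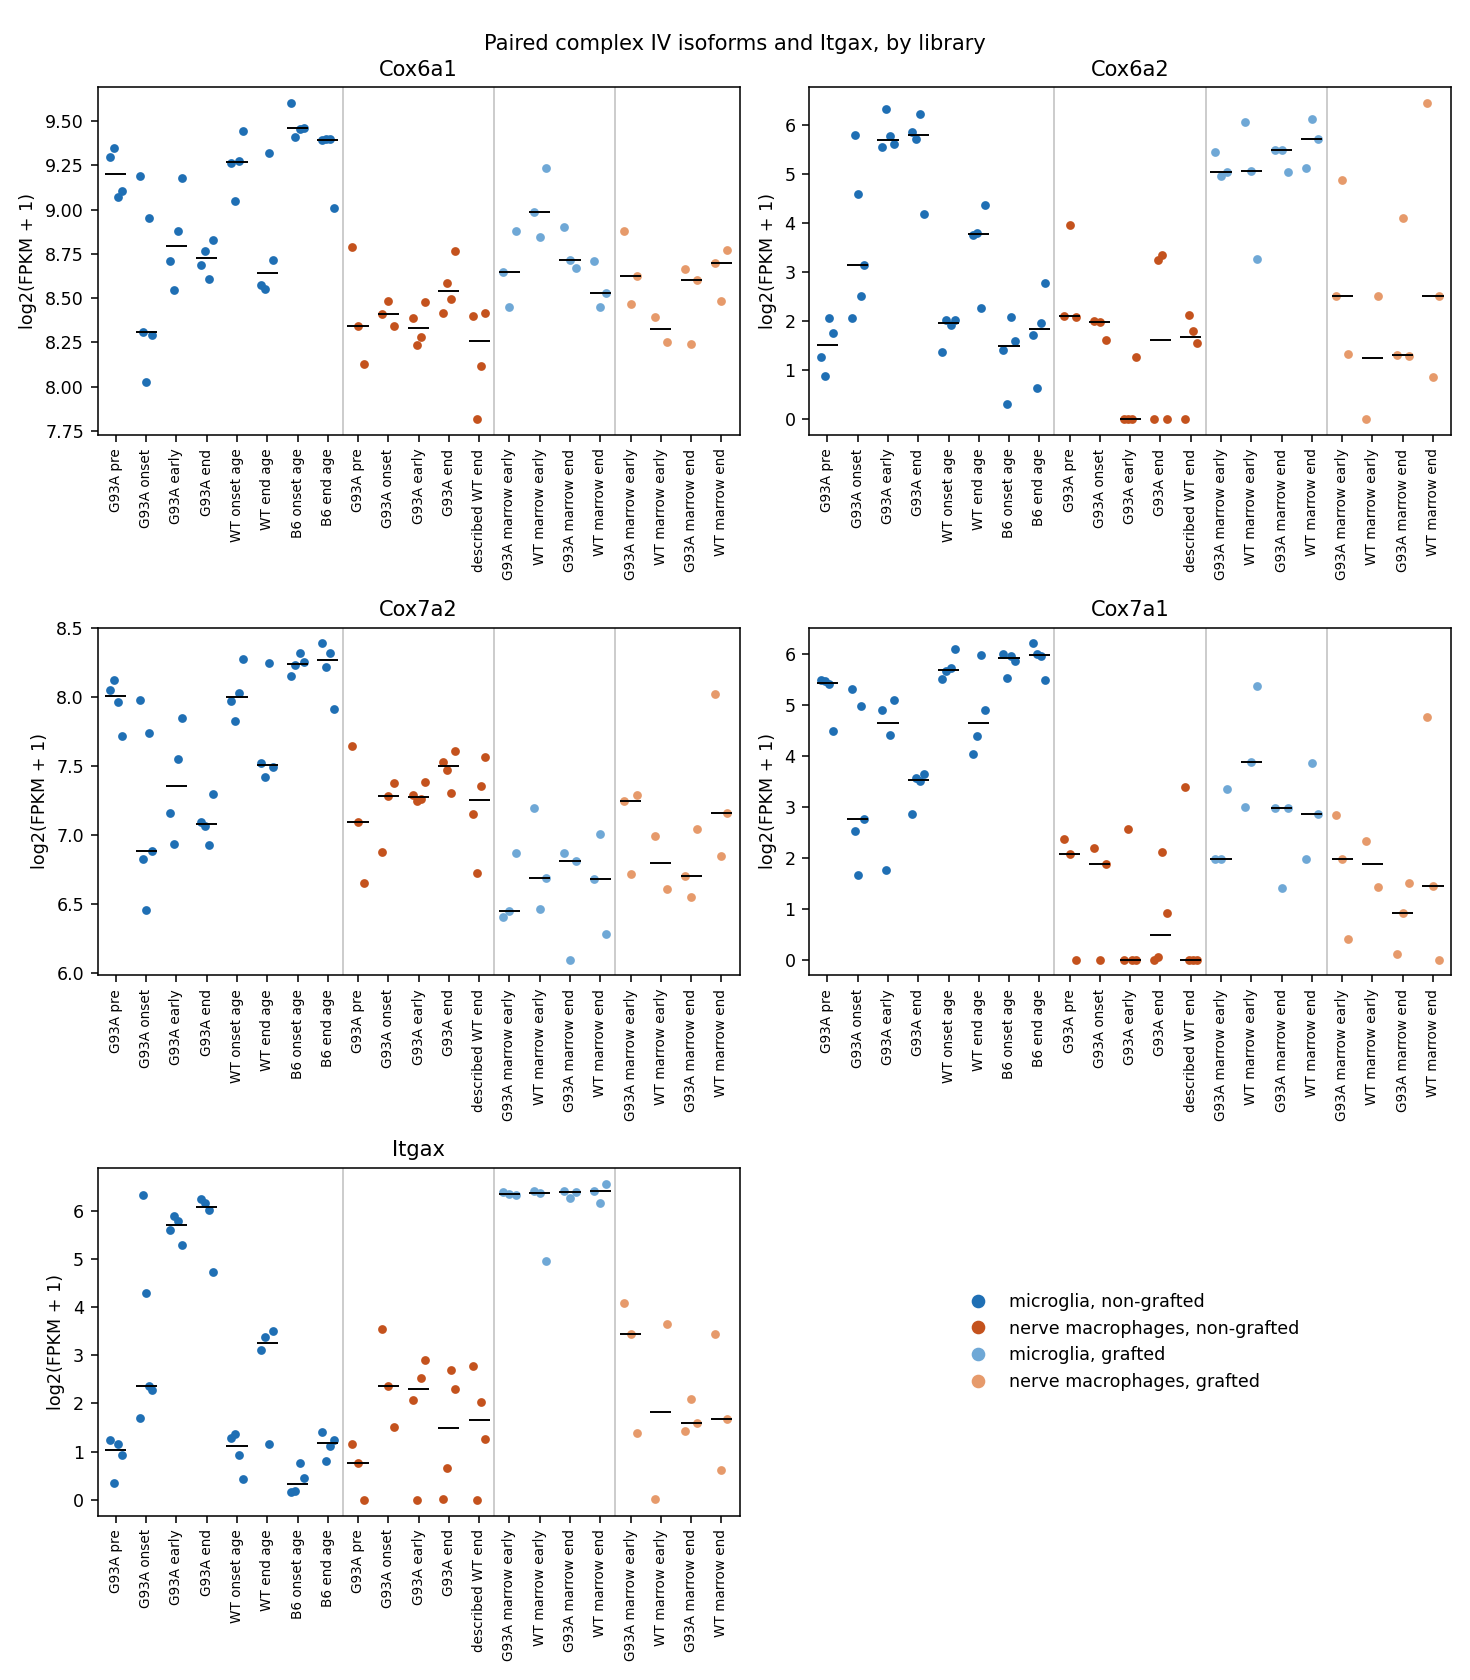
Log2(FPKM + 1) of the paired complex IV isoforms Cox6a1 and Cox6a2, Cox7a2 and Cox7a1, and of Itgax (y axes) in every library, by group (x axis), with group medians as bars. Cox6a2 and Itgax are high in G93A microglia in early symptoms and at end stage, at 45.69 to 79.38 and 17.19 to 73.27 FPKM for Cox6a2.

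The other tissue isoforms of complex IV went down. Cox7a1, the heart and muscle partner of Cox7a2, was at 43.89, 43.34, 41.69 and 21.62 FPKM before symptoms and at 6.23, 10.83, 10.43 and 11.55 at end stage (-1.82 ± 0.63, adjusted p = 0.0164). Cox8b, the muscle partner of Cox8a, was at 2.28, 3.00, 2.91 and 0.90 FPKM and then at 0.05, 0.00, 0.24 and 0.00 (-1.56 ± 0.35, adjusted p = 0.00115). Cox7b2, known from testis, fell from 2.41 to 4.37 FPKM over libraries to 0.00 to 0.78 (-1.71 ± 0.40, adjusted p = 0.00137). Cox8b and Cox7b2 passed the limit of 1 FPKM through microglia libraries where they were high. Their medians were 2.28 and 2.99 FPKM over control microglia and 0.00 for both over non-grafted nerve macrophages. A fall from such high libraries is thus no independent support, and this holds for their calls below as well. Cox6b2, also known from testis, was not called (-0.80 ± 0.40, adjusted p = 0.0918). The common partners Cox6a1, Cox7a2 and Cox8a fell by 0.48 ± 0.21, 0.87 ± 0.25 and 1.02 ± 0.30, with adjusted p of 0.0488, 0.00514 and 0.0071.

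At onset the G93A microglia libraries split. The subunit score was 7.52 and 7.38 in replicates 1 and 4 and 6.41, 6.26 and 6.33 in replicates 2, 3 and 5, so 2 libraries sat at the level before symptoms and 3 below that of end stage. Sdha shows the same split, at 395.41 and 374.42 FPKM in replicates 1 and 4 and at 121.43, 128.08 and 108.31 in the other three. Against libraries before symptoms, 57 members fell and 1 rose (background: 25.4% of all genes called, 15% lower and 10.3% higher), the median change was -0.64, and no member's libraries lay wholly below. The lack of overlap was not counted over all genes. Without any 1 of onset replicates 2, 3 and 5 or pre-symptomatic replicates 1, 2 and 3, no member was called (0 of 93). Without onset replicate 1 or 4, 83 and 80 were called. The share of all genes called in these fits is not given here, so the counts have no background beside them.

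In early symptoms the subunit score was 6.84, 6.55, 7.03 and 7.29. Against libraries before symptoms 23 members fell and Cox6a2 rose (background: 35.2% of all genes called, 16% lower and 19.2% higher), with a median of -0.53. Uqcrfs1 (-1.04 ± 0.31, adjusted p = 0.015), Ndufs1 (-0.99 ± 0.29, adjusted p = 0.0135) and Cox6c (-0.94 ± 0.35, adjusted p = 0.0366) were among those that fell. The count depended on single libraries: it was 2, 8, 15 and 44 without early replicates 2, 1, 3 and 4, and 4, 4 and 7 without pre-symptomatic replicates 1, 2 and 3. For these fits too, the share of all genes called is not given here.

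Controls set at the same ages gave uneven answers. Against B6 mice of the age of end stage, end-stage G93A microglia had 88 members lower and 1 higher (background: 46.2% of all genes called, 28% lower and 18.3% higher), with a median of -0.96. The B6 subunit scores were 7.75, 7.72, 7.74 and 7.36, all above the end-stage range. The 4 members not called were Ndufa1, Ndufa2, Ndufb7 and Atp5g2. At the age of onset 85 were lower than in B6 and 1 higher (background: 55.1% called, 25.7% lower and 29.4% higher), with a median of -0.91, and none was called when only these 2 groups were fitted. Of the oligodendrocyte markers, described below, 5 of 10 were lower at end stage than in B6, and of the astrocyte markers 8 of 9.

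Against WT mice of the age of end stage, 7 members were lower and 1 higher (background: 7% of all genes called, 4.19% lower and 2.81% higher), and the median was -0.49. The WT subunit scores were 6.90, 6.92, 7.72 and 7.10, so replicate 3 sat at the level of B6 while the others lay between end-stage G93A and B6. The 7 were Ndufs8, Cox8b, Atp5f1, Ndufaf6, Sdhaf3, Atp5s and Atp5sl, with Ndufaf6, an assembly factor, at -0.69 ± 0.16 (adjusted p = 0.00757) and the core subunit Ndufs8 at -0.56 ± 0.16 (adjusted p = 0.0369). The count was 2, 5 and 5 without G93A replicates 1, 2 and 3, and 1 and 3 without WT replicates 3 and 4. It ranged from 0 with only these groups fitted to 72 with library quality weights, for which the share of all genes called is not given here. None of 10 oligodendrocyte and 2 of 9 astrocyte markers were called lower than in WT. At the age of onset 50 members were lower than in WT (background: 4.31% called, 3.27% lower; median -0.77). That count was 0 without onset replicate 2, 3 or 5 or without any 1 of the 4 WT replicates, and 86 without onset replicate 1 or 4. No share of all genes called is given here for the fits without single libraries.

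WT and B6 microglia themselves did not yield a called member in limma at either age, and no gene of any kind was called (background: 0%). At the age of end stage the members' median was -0.49, with 44 of 93 at an unadjusted p under 0.05, against 20.6% of all genes. At the age of onset the median was -0.14, with 0 of 93, against 6.19% of all genes. With library quality weights, 92 of 93 members were called at the age of end stage and 24 at the age of onset. The share of all genes called with these weights is not given here, so these counts have no background beside them. The p-values above do not show that the 2 control lines have equal levels.

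RNA of other spinal cord cells moved with the subunits in microglia. From before symptoms to end stage, 9 of 10 oligodendrocyte, 8 of 9 astrocyte and 8 of 9 neuron markers fell and none rose. The summed FPKM of the oligodendrocyte markers went from 27891 to 32472 over libraries before symptoms to 1842 to 11288 at end stage, and that of the astrocyte markers from 6679 to 8679 to 635 to 5637. The onset libraries split in the same way, with oligodendrocyte scores of 7.42 and 7.29 in replicates 1 and 4 and 4.46, 3.85 and 4.56 in the others. WT replicate 3 at the age of end stage, with the high subunit score, had the highest oligodendrocyte score of its group (7.16, against 5.55, 6.00 and 6.21). That library also had the lowest neutrophil score of its group (4.74, against 10.67, 9.88 and 6.81). Neutrophil markers moved the opposite way, with 6 of 10 higher at end stage.

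**Figure D2:**
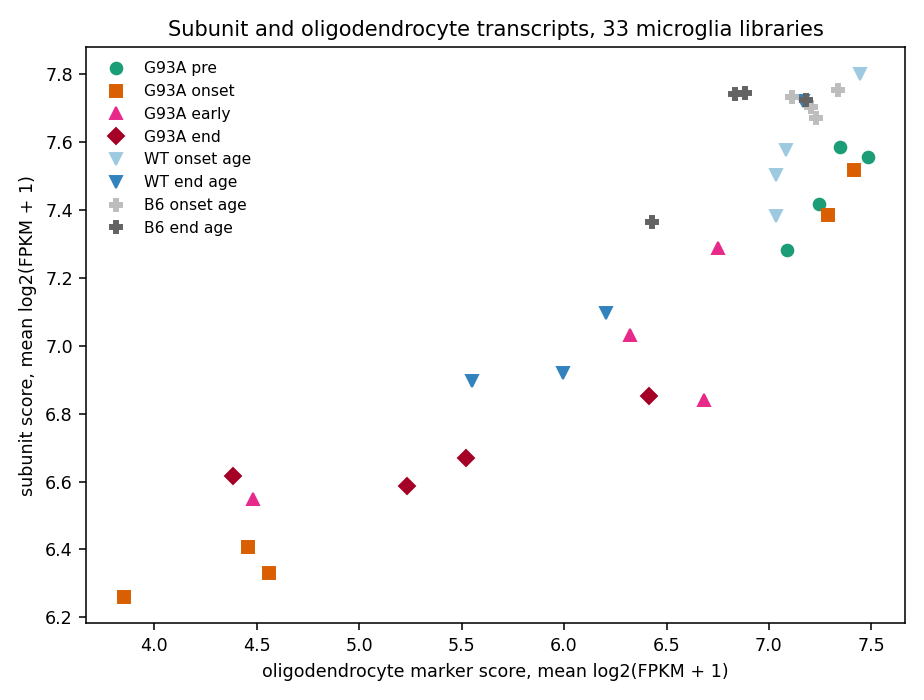
Subunit score (y axis) against oligodendrocyte marker score (x axis), both as mean log2(FPKM + 1), for the 33 non-grafted microglia libraries, with symbols for the groups. Libraries with oligodendrocyte scores under 5 have subunit scores from 6.26 to 6.62, and the 4 libraries taken before symptoms, with 7.09 to 7.48, have 7.28 to 7.59.

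A fit with terms for the oligodendrocyte and neutrophil scores of each library gave far fewer calls among G93A stages and against controls of the age of onset. From before symptoms to end stage, 4 of 93 members were called with these terms, and 71 of 93 had a negative value, with a median of -0.10 (background with terms: 18.9%). The members called lower were Ndufs1 (-0.39, adjusted p = 0.0441) and Uqcrfs1 (-0.49, adjusted p = 0.0173), and those called higher were Cox6a2 (2.76, adjusted p = 0.00046) and Ndufa1 (0.58, adjusted p = 0.0141). In early symptoms Ndufs1, Uqcrfs1 and Cox8b were called lower and Cox6a2 higher (background with terms: 20.6%). At onset no member was called with terms against libraries before symptoms, WT or B6, where 0.00851%, 0.0511% and 0.247% of all genes were called.

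Against controls of the age of end stage, the same terms raised the calls for WT and lowered them for B6. Against WT, 32 members were lower and none higher with terms (median -0.32, with 18.4% of all genes called). Without terms 7 were lower and 1 higher (7% of all genes called). Among the 32 were Uqcrfs1 (-0.56, adjusted p = 0.00314, limma), Ndufs8, Atp5f1 and Cox7a1. Against B6, 74 were lower and 1 higher with terms (median -0.50, with 27.9% of all genes called), and 88 and 1 without them (46.2% of all genes called). In this fit each group's change is what remains after a straight-line relation to marker scores that themselves differ between the groups, so the part of other cells' RNA and the part of microglia cannot be fully told apart.

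**Figure D3:**
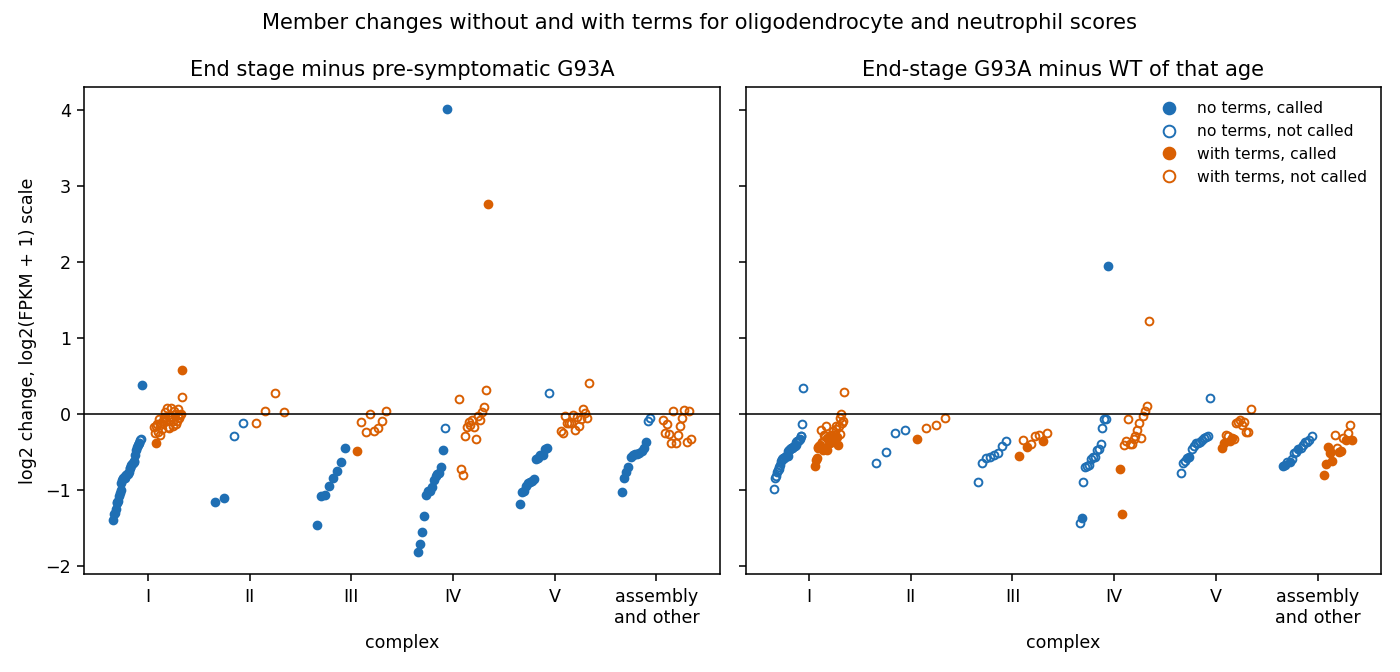
Log2 changes of the 93 members (y axis) by complex (x axis), without terms (blue) and with the terms for both marker scores (orange), for end stage against pre-symptomatic G93A (left) and against WT of that age (right); filled points were called. On the left most members move to near 0 with the terms, while Cox6a2 goes from 4.01 to 2.76 and is called in both.

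Transcripts of the mitochondrial genome, which encodes the remaining subunits, took a smaller share at end stage as well. The 13 features of the mitochondrial chromosome, which carry no symbol and so were not tested, held 6.86% to 13.4% of a library's summed FPKM before symptoms, 0.735% to 11.7% at onset, 2.09% to 8.92% in early symptoms and 2.09% to 4.91% at end stage in G93A microglia. In B6 microglia of the age of end stage their share was 7.80% to 14.3%, and in WT 3.40% to 10.8%. In non-grafted nerve macrophages it lay between 0.285% and 2.01%. The feature that overlaps mt-Co1, the catalytic subunit of complex IV, had a median of 15192 FPKM before symptoms and 4566 at end stage in G93A microglia, and 2342 and 2536 in nerve macrophages. In G93A microglia at onset, the share was 11.7% and 10.2% in replicates 1 and 4. In replicates 2, 3 and 5 it was 1.60%, 0.735% and 0.991%, the same split as in the oligodendrocyte scores. WT replicate 3 at the age of end stage, with the highest oligodendrocyte and the lowest neutrophil score of its group, had 10.8%. The part of other cells' RNA in these shares was not tested.

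**Figure D4:**
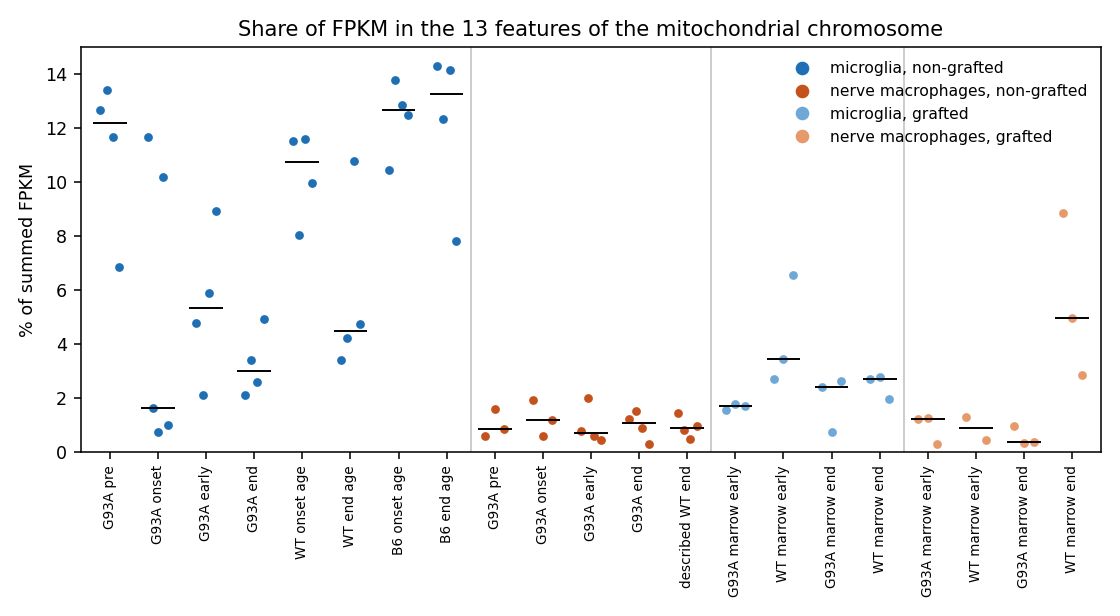
Share of summed FPKM in the 13 features of the mitochondrial chromosome (y axis, %) in every library, by group (x axis), with group medians as bars. The G93A microglia median goes from 12.2% before symptoms to 2.98% at end stage, and nerve macrophages of non-grafted mice reach at most 2.01%.

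Genes around the chain were read from lists chosen with earlier results known, against the same background of 31.1% of all genes lower and 24.8% higher. All 17 citric acid cycle genes tested fell in G93A microglia from before symptoms to end stage (median -1.09), among them Pcx, which feeds the cycle from pyruvate (-2.55 ± 0.62, adjusted p = 0.00174), and Cs, citrate synthase (-1.33 ± 0.30, adjusted p = 0.0011). Of 13 cytochrome c and coenzyme Q genes, 4 fell and 1 rose, with cytochrome c itself, Cycs, at -1.60 ± 0.36 (adjusted p = 0.000965). Of 25 assembly genes for complexes III and IV, 9 fell and 2 rose, and of 8 further ones for complex I, 4 fell and 1 rose. The shares that fell in the coenzyme Q and the complex III and IV lists are near that background. Of 15 regulators of mitochondrial biogenesis, 3 fell and 1 rose, among them the coactivators Ppargc1a (-2.70 ± 0.59, adjusted p = 0.000847) and Ppargc1b (0.57 ± 0.16, adjusted p = 0.00588). Of 74 genes of the mitochondrial ribosome 18 fell and 5 rose (median -0.10), and for these and the regulators the share that fell is below the background. Of 74 genes of the cytosolic ribosome 50 rose and 3 fell (median 0.63).

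In sciatic nerve macrophages no member was called in limma in early symptoms or at end stage, each against libraries before symptoms. Onset was not tested in these cells. The subunit score was 6.74, 6.24 and 6.26 before symptoms, 6.30, 6.37 and 6.52 at onset, 6.42, 6.40, 6.42 and 6.48 in early symptoms and 6.28, 6.59, 6.47 and 6.72 at end stage, and the groups overlapped. From before symptoms to end stage 0 of 90 members tested were called and 3 had an unadjusted p under 0.05, with a median of 0.096 (background: 0.00975% of genes called). In early symptoms 0 of 90 were called (background: 0%, median 0.032) and 2 had an unadjusted p under 0.05. Against the 4 libraries described as WT 0 of 90 were called (background: 0%, median 0.21) and 7 had such a p. Sdha was at 98.09, 138.98 and 39.77 FPKM before symptoms and 78.18, 92.97, 81.87 and 98.13 at end stage. Ndufs1 was at 33.96, 12.32 and 46.18 FPKM and then at 9.80, 9.22, 32.27 and 33.55. With FPKM sums made equal, the change in the median subunit score turned from positive to -0.059, and the median change of the members to -0.11. Over all genes tested, 671 of 10260 genes (6.54%) had an unadjusted p under 0.05 at end stage against before symptoms. The share was 5.21% in early symptoms and 6.45% against the libraries described as WT.

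Before symptoms the members were lower in nerve macrophages than in microglia. Of 93, 71 were lower and 1 was higher (background: 54.7% of all genes called, 31% lower and 23.6% higher), with a median of -1.01 against -0.17 over all genes. Cox7a1 (-3.74 ± 0.79, adjusted p = 9.58e-05), Ndufaf5 (-3.22 ± 0.65, adjusted p = 5.14e-05), Sdhc (-2.20 ± 0.34, adjusted p = 7.8e-07) and Sdha (-2.01 ± 0.34, adjusted p = 3.04e-06) had large differences. Ndufb7, an accessory subunit of complex I, was the member that was higher, at 333.29, 232.17 and 367.83 FPKM in MP and 195.80, 206.03, 167.86 and 177.18 in MG. The marker scores above, of astrocytes, oligodendrocytes and neurons in MG and of neutrophils in MP, differ in the same comparison (9 of 9 astrocyte markers lower in MP and 10 of 10 neutrophil markers higher), and their part was not tested.

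At end stage the gap was smaller. Of 93 members, 16 were lower and 5 higher in MP than in MG (background: 39.4% called, 26.3% lower and 13.1% higher), with a median of -0.21 against -0.37 over all genes. The members higher in MP were Ndufb7 (1.13 ± 0.21, adjusted p = 5.49e-05), Ndufb11, Ndufs4, Atp5l (0.88 ± 0.20, adjusted p = 0.00055) and Cox6b2 (2.01 ± 0.48, adjusted p = 0.00088). Cox6a2 had the largest difference in the other direction: MP libraries were at 0.00, 8.42, 9.25 and 0.00 FPKM (-3.85 ± 0.67, adjusted p = 2.13e-05). Scaling to equal FPKM sums raised the count from 21 to 50, and the share of all genes called with that scaling is not given here.

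The change from before symptoms to end stage itself differed between MP and MG. In 1 fit of all non-grafted libraries, 32 members had a higher change in MP and 1, Cox6a2, a lower one (background: 19.8% of all genes called, 9.51% higher and 10.3% lower), with a median difference of 0.91. By complex the counts were 11 of 36 for complex I, 1 of 4 for complex II, 4 of 8 for complex III, 6 of 11 for complex IV and 5 of 15 for complex V. Uqcrfs1 had a difference of 1.77 ± 0.44 (adjusted p = 0.00724), Cox6c of 1.60 ± 0.45 (adjusted p = 0.0132) and Cox6a2 of -5.07 ± 0.99 (adjusted p = 0.00108). The count of 33 was 15, 15, 15 and 13 without pre-symptomatic MG replicates 1 and 2 and MP replicates 2 and 3, and 15, 21, 18, 19 and 21 without end-stage MG replicates 1, 2 and 3 and MP replicates 2 and 4. These counts have no background beside them, since the share of all genes called without each library is not given here. The losses of astrocyte, oligodendrocyte and neuron markers in MG given above belong to the same contrast.

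In grafted mice no member was called by marrow donor in limma, in either cell type or stage (0 of 90 in each; background: 0% in each). Unadjusted p-values under 0.05 were found for 7 and 0 members in microglia in early symptoms and at end stage, and for 1 and 24 in nerve macrophages. Over all genes tested the shares with such a p were 11% and 0.476% in microglia and 2.38% and 15.4% in nerve macrophages. Without WT marrow replicate 1 in early symptoms 3 members were called in microglia, and without WT marrow replicate 2 at end stage 3 were called in nerve macrophages. For these fits without 1 library, the share of all genes called is not given here. In microglia the subunit score was 6.22, 6.20 and 6.47 with G93A marrow and 6.65, 6.42 and 6.84 with WT marrow in early symptoms (median change 0.35). Other cells' markers moved with this difference, with oligodendrocyte scores of 3.66, 3.63 and 4.56 against 4.06, 5.77 and 7.21 and astrocyte scores of 3.13, 3.01 and 4.23 against 3.81, 5.97 and 8.28, and their part was not tested. With library quality weights 38 members were called there, and the share of all genes called with these weights is not given here. At end stage the microglia subunit score was 6.47, 5.95 and 6.41 with G93A marrow against 6.36, 6.56 and 6.12 with WT marrow (median 0.066). In nerve macrophages in early symptoms it was 6.81, 6.39 and 6.43 with G93A marrow and 6.39 and 6.20 with WT marrow (median -0.23). At end stage nerve macrophages had 6.19, 6.11 and 6.44 with G93A marrow and 6.94, 6.50 and 6.77 with WT marrow, and here the groups did not overlap.

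That last comparison had the widest gap without a call. The members' median was 0.54, against -0.15 over all genes, and 24 of 90 members, against 15.4% of all genes, had an unadjusted p under 0.05. Atp5e, the small epsilon subunit of ATP synthase, was at 132.91, 138.72 and 155.88 FPKM with G93A marrow and at 340.00, 234.13 and 341.72 with WT marrow (1.08 ± 0.27, adjusted p = 0.151). Uqcrb, a complex III subunit chosen for its low p, was at 73.33, 57.01 and 78.27 FPKM and at 241.94, 106.38 and 174.57 (1.25, adjusted p = 0.17). Cox6c was at 141.28, 120.18 and 162.66 FPKM and at 257.45, 231.17 and 323.62 (0.93 ± 0.30, adjusted p = 0.191). In these 6 libraries the share of mitochondrial chromosome features was 0.326% to 0.96% with G93A marrow and 2.84% to 8.84% with WT marrow, and the muscle score was 1.10 to 3.53 and 3.11 to 6.34. The part of muscle RNA in these values was not tested.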

How the data were processed

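RNA-seq libraries of CD11b-selected cells were analysed from 74 samples in 21 groups. The authors deposited FPKM values per gene in 1 table for non-grafted and 1 for grafted mice, written with decimal commas. Per the submitters' processing notes, DESeq2, FastQC, Picard, R 3.2.5, SAMtools and mm10 were used, with no role stated; no aligner or read depth is named there. The members and gene lists were chosen with earlier results of these data known. Values were tested as log2(FPKM + 1) with limma 3.58.1 in R 4.3.3 (group means, trended empirical Bayes), over genes with a mean of at least 1 FPKM in the fit. P-values were adjusted by Benjamini-Hochberg over all genes, and an adjusted p under 0.05 is called. MG, MP, both together, grafted MG and grafted MP were fitted separately, so grafted and non-grafted mice were not compared. Fold changes on this scale understate those of low genes. The fit was tested on simulated data. In each comparison, up to 3 called members of each complex and up to 3 called assembly factors with the largest changes could be named, beside a fixed list of subunits and isoform pairs; other members named were chosen after their values were seen. Alternatives covered the pseudocount, filter, scaling, replicate block, quality weights, marker terms, samples fitted and each library left out. Near-identical stretches in other transcripts were found with blastn 2.17.0+ (at least 95% identity over 200 bases). Dates stood in place of 27 symbols of the non-grafted mice. The result of 1 gene of the lists is not reported here.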

Additional observations from a re-analysis of the deposited data

Results flagged for a closer look

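The change from before symptoms to end stage differed between nerve macrophages and microglia for 33 members (limma interaction, Benjamini-Hochberg). Given as MP change minus MG change on the log2 scale, complex I values were 1.86 for Ndufb4, 1.85 for Ndufb9 and 1.91 for Ndufv1, and Sdha of complex II had 1.26. In complex III, Uqcr10 had 1.29, Uqcrc1 1.03, Uqcrfs1 1.77 and Uqcrh 1.25. In complex IV, Cox4i1 had 0.93, Cox6c 1.60, Cox7a2 1.22, Cox8a 1.18 and Ndufa4 1.12. Its tissue isoforms had 2.26 for Cox6b2, 1.70 for Cox7b2, 1.97 for Cox8b and -5.07 for Cox6a2. In complex V, Atp5b had 1.15, Atp5d 1.11 and Atp5h 1.09, and the assembly factors Ndufaf4 and Ndufaf5 had 1.95 and 2.42.

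Single libraries stood apart from the rest of their group in 17 of 186 checks by Dixon's criterion, which chance meets in about 1 of 20 groups. That rate does not apply where the other libraries lay at 0.0, as in the nerve macrophage flags of Cox6a2, Cox7a1, Cox7b2 and Cox8b. The checks also share libraries, so they are not independent. In B6 microglia of the age of end stage, the lowest library had mean log2(FPKM + 1) of 6.952 for complex I, 7.596 for complex III, 7.523 for complex V and 7.364 over all subunits, and 9.012 for Cox6a1, while the highest library for Cox8b had 3.457. In nerve macrophages in early symptoms the highest library had 6.028 for complex I, 7.556 for complex IV, 1.257 for Cox6a2, 2.561 for Cox7a1 and 0.566 for Cox8b. For Cox7a1 the lowest microglia libraries had 2.854 at end stage and 4.50 before symptoms in G93A, and the highest nerve macrophage library described as WT had 3.399. The lowest WT microglia library at the age of onset had 1.367 for Cox6a2, the highest WT library at the age of end stage 8.246 for Cox7a2, and the highest end-stage nerve macrophage library 0.604 for Cox7b2.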

How the results depend on the processing

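Of 207 values compared apart from leaving out single libraries, 157 kept their size and 50 moved. The 207 values are counts of called members, which have no sign, and score changes, which had no test. Some score changes of nerve macrophages did change sign. Of 4231 single-gene values, 3162 kept their call, 1057 lost it and 12 reversed. Calls for end stage against before symptoms moved with the marker terms, to 4; so did early symptoms (4), onset against before symptoms (0), WT (0) and B6 (0), and end stage against WT (32). Reversed with these terms were, at end stage, Sdhc 0.034, Cox4i1 0.024, Cox6a1 0.086, Cox7a1 0.19, Atp5e 0.013 and Cox7a2l 0.042, and at onset Ndufs1 0.042, Sdhc 0.088, Cox7a1 0.062, Atp5a1 0.065, Atp5b 0.060 and Atp5o 0.052. End stage against WT gave 2 with structural subunits alone, 5 without the filter, 3 with either scaling, 72 with quality weights, 28 without libraries above 10000 FPKM of S100a8 and 0 with only the groups compared. Onset against WT gave 0 without the filter, with either scaling, with the replicate block, without the S100a8 libraries and with only the groups compared, 88 with quality weights, and 87 without the 2 onset libraries with high oligodendrocyte scores, a setting chosen after seeing the data. Onset against before symptoms gave 0 without the filter, with the replicate block, without the S100a8 libraries and with only the groups compared, and onset against B6 gave 0 with only the groups compared. Early symptoms gave 10 without the filter, 48 with equal FPKM sums, 81 with quality weights and 49 with only the groups compared. Quality weights gave 92 and 24 calls for WT against B6 at the ages of end stage and onset, and 38 for grafted microglia in early symptoms. The interaction gave 52 with median-ratio scaling, and MP against MG at end stage 50 with equal sums. Apart from the marker terms, the share of all genes called in these settings is not given here. The cause of these moves was not tested.

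The median score change of microglia at end stage was -1.15, -1.01, -1.30, -1.20 and -1.09 for complexes I to V and -1.15 over all subunits with median-ratio scaling, and -1.01, -0.86, -1.17, -1.08, -0.98 and -1.03 with equal sums. That of nerve macrophages became -0.19 for complex III, -0.048 for complex IV and -0.059 over all with equal sums. Scaling moved the median of all genes tested from -0.167 to -0.565 (median-ratio) and -0.546 (equal sums) for MP against MG before symptoms, and from -0.369 to -0.698 (equal sums) at end stage, and that of the interaction from -0.181 to 0.19 (median-ratio).

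Leaving out 1 library gave 67 to 80 called members for end stage against before symptoms, 2 to 44 for early symptoms, 0 to 83 for onset, 1 to 8 and 0 to 86 against WT, 85 to 89 and 75 to 88 against B6, 61 to 72 and 15 to 23 for MP against MG, 13 to 43 for the interaction, and 0 to 3 for grafted microglia in early symptoms and grafted nerve macrophages at end stage. The replicate numbers did not pair the samples: in 0 of 18 comparisons was every pair's correlation above 0.1. With the replicate block, end stage against before symptoms gave 81 calls. Neither for this block nor for the fits without 1 library is the share of all genes called given here. Without read depth, counting error could not be given.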
